A study of Mus musculus with 16 samples.

Results

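The genes described here are 47 genes of mitosis, chosen by symbol for their known role in cell division and grouped by that role into 10 subgroups. All 47 were found among the 54658 symbols of the count tables, and all 47 passed the minimum of a mean of 1 CPM (read count scaled to library size) over the distinct libraries, which left 14004 genes to test. C17.2α cells are a line of mouse cerebellar neural cells made to express the thyroid hormone receptor TRα1, and they were kept in serum stripped of thyroid hormone. They were exposed for 24 h, without T3, to the solvent DMSO (2 libraries), to azoxystrobin at 100 or 1000 nM, or to picoxystrobin, pyraclostrobin or trifloxystrobin at 30, 100, 300 or 1000 nM (1 library for each). These compounds are strobilurins, fungicides that block complex III of the mitochondrial respiratory chain, and the study asked whether their transcriptional responses are shared. The 16 libraries held 12292390 to 18188099 counts (median 16180381 over the 15 distinct libraries). Azoxystrobin at 100 nM and DMSO replicate 2 had the same count for every gene, whereas all other pairs among the 120 differed, so these counts entered once, as DMSO. Which of these labels is right could not be worked out, so the second DMSO library may be a treated one, and every comparison with DMSO rests on it. All cells carry the receptor transgene, all comparisons are within 1 cell line, and nothing states that the libraries came from separate cultures, so p-values measure the spread between these libraries only.

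Mitosis is driven by the kinase CDK1 bound to cyclins A and B, which triggers chromosome condensation, spindle assembly and attachment of the chromosomes to spindle microtubules through kinetochores. The spindle assembly checkpoint holds the anaphase-promoting complex (APC/C) inactive until every kinetochore is attached, and the APC/C then has securin and cyclin B degraded so that sister chromatids separate. Most genes of this program are silent in resting cells and are transcribed together late in the cell cycle, through promoters that bind the DREAM, B-MYB and FOXM1 factors at cell cycle genes homology region (CHR) elements, often next to CCAAT boxes bound by NF-Y. Their mRNA levels in a culture depend both on the share of cells in G2 and M and on transcription per cell, which cannot be told apart in RNA from whole wells.

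The promoter letters of these genes are shown first because they were more common among the members than among all promoters. The windows were those of RefSeq on GRCm38.p6, from 250 bases before to 50 bases after each start, and 41 of the 47 members had a window (45 windows). The CHR letters TTTGAA, or TTCAAA on the other strand, were in 75.6% of the member windows and in 17.9% of all 32851 windows. The CCAAT letters, or ATTGG, were in 80% of the member windows and in 37.4% of all windows, and both motifs were in 66.7% against 6.95%. Within 60 bases before to 50 after the start, CHR letters were in 64.4% of the member windows and in 5.5% of all. In the other gene lists used below, the CHR share was 37.5% for other kinetochore genes, 37.9% for other spindle and cytokinesis genes and 13% for replication genes. The CCAAT share was 65.6%, 55.2% and 65.2% in these lists. A match of letters is a description and not a bound site. The 6 members of highest mean CPM with both motifs within the 150 bases before the start follow. The stretches were trimmed to bases before the start in RefSeq and in GENCODE M21. They are written 5′ to 3′ on the strand of the gene, with both motifs in capitals.
Mki67 (chr7:135716380-135716529, minus strand): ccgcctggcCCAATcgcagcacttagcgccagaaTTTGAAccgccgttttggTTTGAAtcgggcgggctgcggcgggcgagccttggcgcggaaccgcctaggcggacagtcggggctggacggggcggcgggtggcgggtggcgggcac
Cdk1 (chr10:69352939-69353062, minus strand): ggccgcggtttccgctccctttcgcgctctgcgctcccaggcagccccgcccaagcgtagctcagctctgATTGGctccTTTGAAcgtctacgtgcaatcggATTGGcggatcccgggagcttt
Top2a (chr11:99024190-99024339, minus strand): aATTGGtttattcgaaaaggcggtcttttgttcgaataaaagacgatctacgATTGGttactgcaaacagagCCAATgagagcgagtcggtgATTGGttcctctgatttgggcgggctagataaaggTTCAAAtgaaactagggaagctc
Ckap2 (chr8:22185820-22185969, minus strand): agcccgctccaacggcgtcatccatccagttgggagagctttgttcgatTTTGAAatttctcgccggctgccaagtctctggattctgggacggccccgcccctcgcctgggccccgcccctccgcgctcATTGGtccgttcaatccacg
Kif11 (chr19:37376232-37376381, plus strand): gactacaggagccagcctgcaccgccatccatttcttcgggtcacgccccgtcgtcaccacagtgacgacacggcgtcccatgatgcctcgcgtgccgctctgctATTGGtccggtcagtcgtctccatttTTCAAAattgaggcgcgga
Smc2 (chr4:52439071-52439220, plus strand): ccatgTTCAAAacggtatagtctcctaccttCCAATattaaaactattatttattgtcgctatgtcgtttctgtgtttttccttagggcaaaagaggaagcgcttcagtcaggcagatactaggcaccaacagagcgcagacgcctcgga
The spacing of the motifs differed between these promoters. Top2a held 4 CCAAT matches and 1 CHR match in 150 bases, Cdk1 held 2 and 1 in 124 bases, and Mki67 held 1 CCAAT match and 2 CHR matches. Of the windows of members that rose at high concentrations of pyraclostrobin, described below, 62.5% held CHR letters and 68.8% CCAAT letters. Of those of the other members, 82.8% and 86.2% did.

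The members were expressed at moderate to high levels in every library. Their mean over the 15 libraries ranged from 14.4 CPM for Ndc80, a subunit of the microtubule-binding NDC80 complex, to 881 CPM for Mki67, which coats mitotic chromosomes. Per kilobase of the longest annotated transcript, Ccna2, which encodes cyclin A2, had 98.3 CPM, Ccnb2 had 92.7, Ube2c had 90.8 and Mki67 had 87.5, whereas Kif15 had 5.9 and Ndc80 had 3.74. The ratio of the highest to the lowest library ranged from 1.32 for Bub3 to 3.09 for Spc25, with a median of 2.05. Picoxystrobin at 1000 nM was the highest library for 32 members and pyraclostrobin at 1000 nM for 13. Trifloxystrobin at 30 nM was the lowest library for 31 members and azoxystrobin at 1000 nM for 9.

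**Figure D1:**
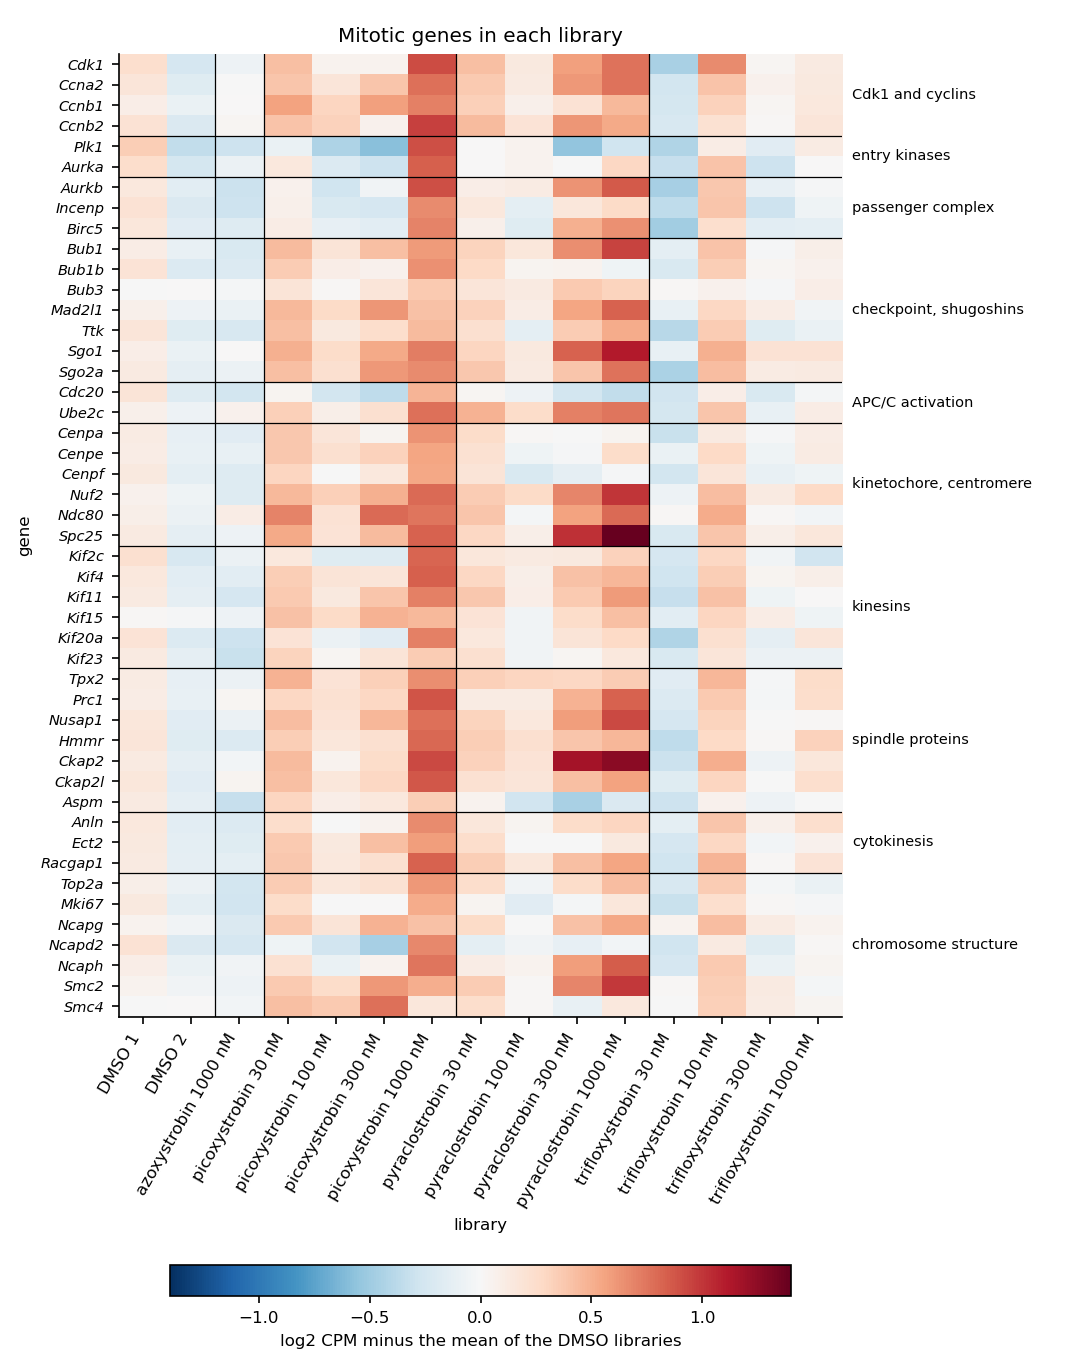
Log2 CPM of the 47 members (rows, grouped by role) in the 15 distinct libraries (columns), as a difference from the mean of the DMSO libraries, red for higher and blue for lower. The column of picoxystrobin at 1000 nM is red for all 47 members, and the largest difference is that of Spc25 at 1000 nM of pyraclostrobin (1.41).

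The members moved together from library to library, including between the controls. Relative to the mean of the DMSO libraries, the median member was at 0.12 in the first DMSO library and -0.12 in the second on the log2 scale, and 45 of the 47 members were higher in the first. It was at -0.14 for azoxystrobin at 1000 nM. For picoxystrobin it was at 0.36, 0.15, 0.23 and 0.70 at 30, 100, 300 and 1000 nM, so only the highest concentration stood well above the others. For pyraclostrobin it was at 0.25, 0.05, 0.37 and 0.47, and for trifloxystrobin at -0.24, 0.34, -0.02 and 0.06. The values of trifloxystrobin did not follow its concentration. All 47 members were above both DMSO libraries in picoxystrobin at 1000 nM, where 39.8% of all tested genes were. In trifloxystrobin at 100 nM, 43 members were above both, against 37% of all tested genes.

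The DNA replication genes, a list of 31 genes of the preceding S phase, followed the members in part. Their median was 0.12 in the first DMSO library, 0.48 in picoxystrobin at 1000 nM and 0.39 in trifloxystrobin at 100 nM. In pyraclostrobin at 300 and 1000 nM it was 0.70 and 0.83, above the medians of the members. In picoxystrobin at 30 to 300 nM it was 0.08, -0.12 and -0.08, below the medians of the members.

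**Figure D2:**
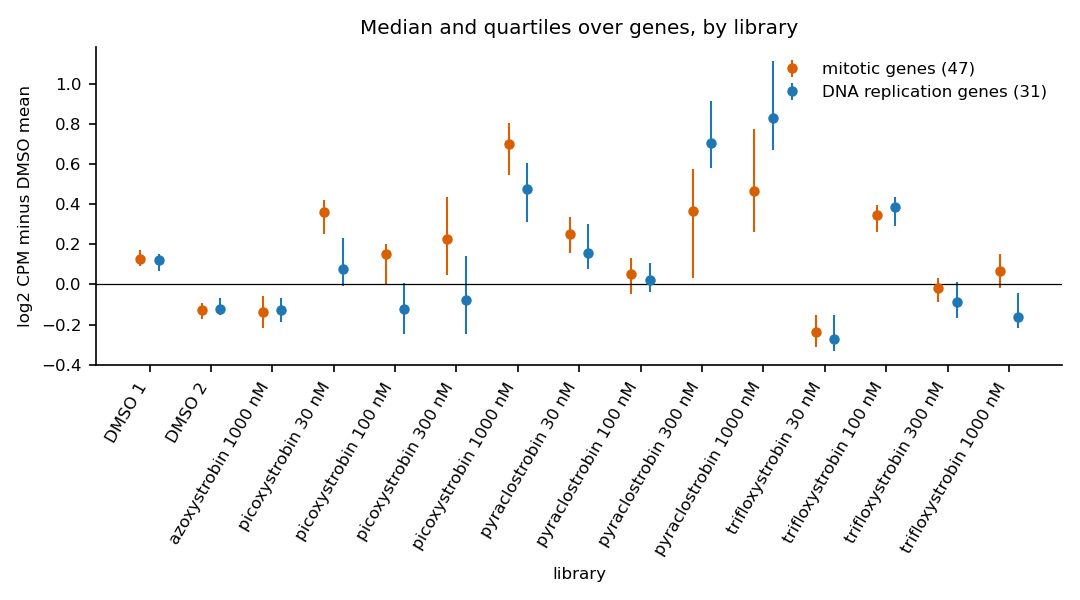
Median (points) and quartiles (bars) over genes of log2 CPM minus the DMSO mean, for the 47 mitotic genes and the 31 replication genes, in each library. The mitotic genes were highest in picoxystrobin at 1000 nM (0.70) and the replication genes in pyraclostrobin at 1000 nM (0.83).

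The first comparison asked whether each compound, with its 4 concentrations taken as replicates, differed from DMSO. Changes are given as log2 fold changes, positive where the level was higher with the compound. By the quasi-likelihood test of edgeR, adjusted over all 14004 genes after Benjamini and Hochberg, none of the 47 members passed an adjusted p of 0.05 for picoxystrobin, pyraclostrobin or trifloxystrobin. At an unadjusted p under 0.05, 19 members were higher with picoxystrobin, 13 with pyraclostrobin and 0 with trifloxystrobin. Of the 14004 tested genes, 1079, 1561 and 109 were higher at that threshold. DESeq2 called 0, 1 and 0 members. For pyraclostrobin 6 members passed without its library at 100 nM, and 12 without the filter on low counts. For picoxystrobin 2 passed without its library at 1000 nM. The counts of these alternative fits were not set against all tested genes. Of all tested genes, 0.0286%, 1.31% and 0% were called for these compounds in the main fits by edgeR. The median member change was 0.38 for picoxystrobin, with all 47 estimates above 0, against a median of 0.01 over all tested genes. For pyraclostrobin it was 0.31 with 41 estimates above 0, and for trifloxystrobin 0.06 with 32. All 3 comparisons rest on the same DMSO libraries, which themselves differed by 0.25 in the median member.

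For picoxystrobin, the lowest adjusted p was that of Ccnb1, which encodes cyclin B1. Its level was 102 and 89.3 CPM in DMSO and 141, 118, 141 and 156 CPM at 30, 100, 300 and 1000 nM, so all 4 libraries were above both controls. The change was 0.54 ± 0.15 (SE, adjusted p = 0.172) by edgeR's quasi-likelihood test and did not pass. At 30 to 300 nM the members whose transcripts were richer in GC had lower values. Across the 47 members, the correlation of the log2 change with GC content was -0.69, -0.74 and -0.83 at 30, 100 and 300 nM, and 0.33 at 1000 nM. It was 0.60 in the first DMSO library against the mean of both. Over the 13929 tested genes with a known GC content it was -0.53, -0.60, -0.67 and 0.17. Genes of a library share its preparation and are not independent replicates. The comparison was also fitted with a correction for GC content and transcript length, whose estimates are not given here. The part of this trend in the changes was not tested separately. The members had a median GC content of 45.3%, against 49.3% for all tested genes.

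**Figure D3:**
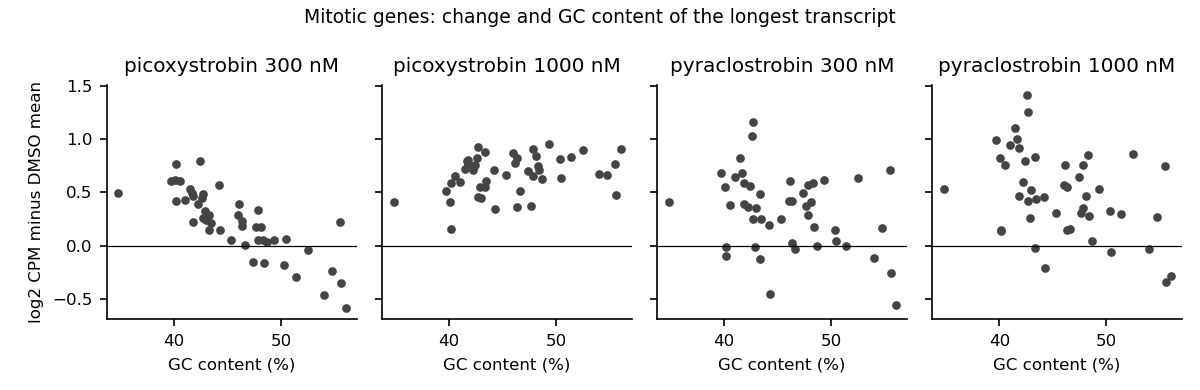
Log2 CPM minus the DMSO mean against the GC content of the longest transcript, for the 47 members in 4 libraries. The points fall from left to right in picoxystrobin at 300 nM (r = -0.83), rise slightly in picoxystrobin at 1000 nM (r = 0.33) and fall in pyraclostrobin at 300 nM (r = -0.33) and 1000 nM (r = -0.44).

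The second comparison set the high concentrations of pyraclostrobin (300 and 1000 nM) against DMSO, and was not run for picoxystrobin or trifloxystrobin. It was chosen because the study reported that cell growth tended to rise at low and fall at high concentrations of pyraclostrobin. Of the 47 members, 15 rose and 0 fell, and 41 estimates were above 0 with a median of 0.43. At an unadjusted p under 0.05, 22 members were higher, as were 2433 of the 14004 tested genes, and DESeq2 called 16 members. Among all tested genes 22.2% passed, 10.6% with a higher level, and the median change was 0.01. The members that rose were Spc25, Nuf2 and Ndc80 of the kinetochore, Bub1, Bub3, Mad2l1 and Sgo1 of the checkpoint and cohesion protection, Smc2, Ncapg and Ncaph of condensin, Ckap2, Nusap1 and Prc1 of the spindle, Ube2c and Ccna2. Transcripts of these 15 had a median GC content of 42.4%, against 46.45% for the other 32 members. The counts of the alternative fits, DESeq2 among them, were not set against the share of all tested genes in each fit. The number that rose depended on single libraries. It was 2 without pyraclostrobin at 1000 nM, 8 without that at 300 nM, 8 and 3 without the first or the second DMSO library, and 24 without picoxystrobin at 300 or at 1000 nM, which enter this fit through the shared estimate of the spread. Once GC content and length of the transcripts were corrected for, 11 members were called, of which 10 were among the 15. Ccna2, Ncapg, Ndc80, Nusap1 and Prc1 did not pass with this correction (adjusted p = 0.0641, 0.19, 0.0705, 0.0628 and 0.134 by edgeR).

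**Figure D4:**
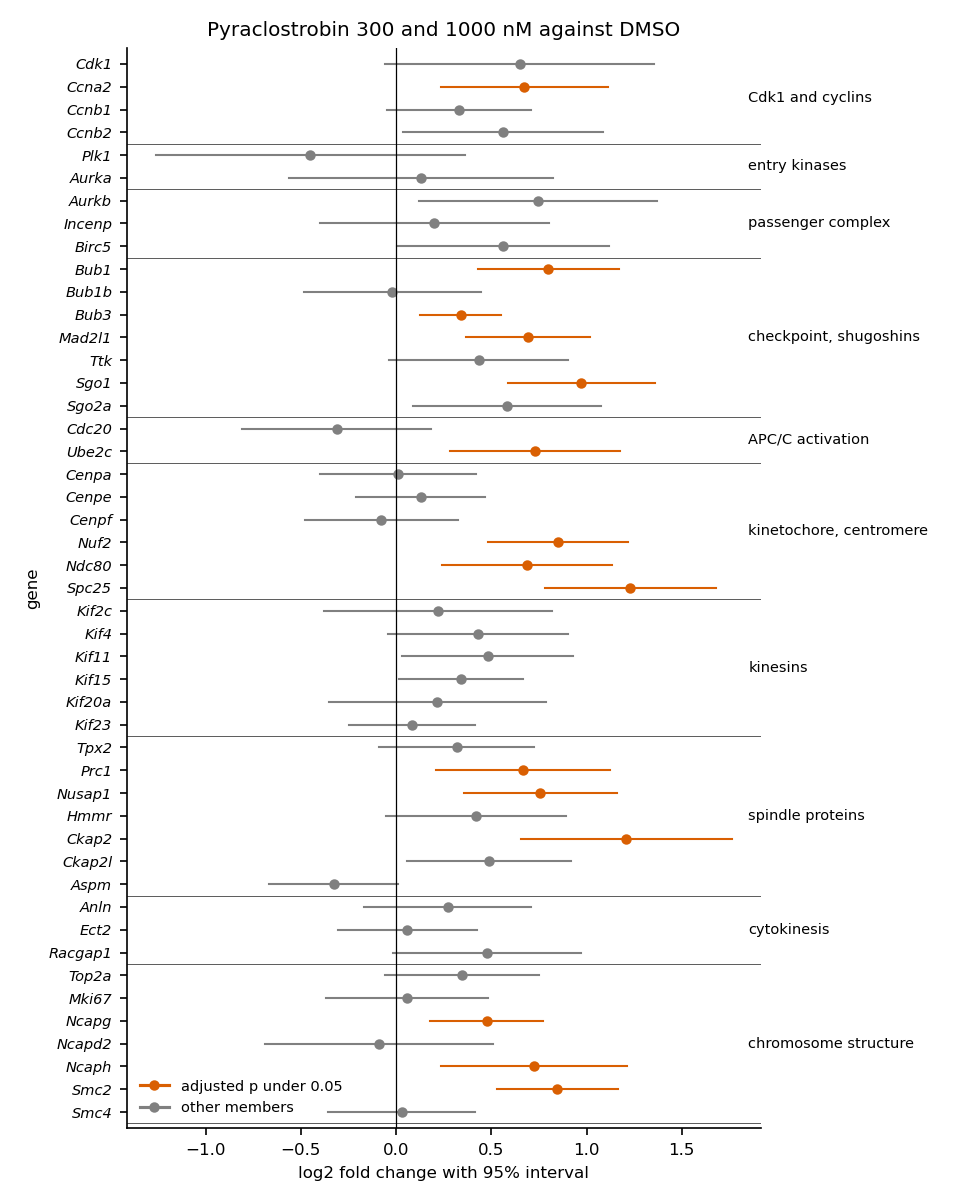
Log2 fold change (points) with its 95% interval (bars) of each member at 300 and 1000 nM of pyraclostrobin against DMSO, from edgeR's quasi-likelihood fit, grouped by role, with members passing an adjusted p of 0.05 in orange. The largest estimates are those of Spc25 (1.23) and Ckap2 (1.21), and those of Plk1, Aspm and Cdc20 lie below 0.

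The kinetochore joins chromosomes to microtubules, and 3 of its 6 members rose. Spc25, Nuf2 and Ndc80 are subunits of the NDC80 complex, which binds the microtubule directly. Spc25 (chr2:69193895-69206194, minus strand on GRCm38) had 44.2 and 37.2 CPM in DMSO and 38.7 CPM in azoxystrobin. Its level was 49.4, 43.1, 82.7 and 108 CPM at the rising concentrations of pyraclostrobin, 58.5, 46.4, 55.3 and 71.9 CPM in picoxystrobin and 35.05, 53.2, 42.9 and 45.4 CPM in trifloxystrobin. Both high libraries of pyraclostrobin were above every other library, whereas the low libraries lay near the controls. The mean was 95.5 ± 18.0 CPM (SD, n = 2) at the high concentrations and 40.7 ± 4.90 CPM (SD, n = 2) in DMSO, and the change was 1.23 ± 0.21 (SE, adjusted p = 0.00252) by edgeR's quasi-likelihood test. Nuf2, the partner of Ndc80, had 32.6 and 30.1 CPM in DMSO, 27.6 CPM in azoxystrobin, 43.1, 39.5, 44.2 and 54.4 CPM in picoxystrobin, 40.2, 37.8, 50.4 and 62.7 CPM in pyraclostrobin and 29.8, 42.4, 34.2 and 38.1 CPM in trifloxystrobin. Picoxystrobin at 1000 nM lay between the high libraries of pyraclostrobin. The change of Nuf2 was 0.85 ± 0.17 (SE, adjusted p = 0.00525) by the same edgeR test, and that of Ndc80 was 0.69 ± 0.21 (SE, adjusted p = 0.0331).

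The other kinetochore members gave no call. Cenpa, the histone H3 variant of the centromere, had 175 and 148 CPM in DMSO, 144 CPM in azoxystrobin, 209, 181, 165 and 249 CPM in picoxystrobin, 192, 163, 160.2 and 166 CPM in pyraclostrobin and 129.6, 176, 159 and 173 CPM in trifloxystrobin. The high libraries of pyraclostrobin lay between the controls, and the 95% interval of the change was -0.40 to 0.42. Cenpe, a kinetochore motor, and Cenpf, a large kinetochore protein, had changes of 0.13 and -0.08 with adjusted p-values of 0.587 and 0.796 by edgeR.

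In the checkpoint and shugoshin subgroup 4 of 7 members rose. Sgo1 (chr17:53674786-53689333, minus strand), which protects centromeric cohesin, had 51.01 and 44.9 CPM in DMSO, 48.1 CPM in azoxystrobin, 67.8, 57.3, 69.03 and 78.7 CPM in picoxystrobin, 59.1, 52.6, 84.8 and 103 CPM in pyraclostrobin and 44.6, 67.7, 55.2 and 55.1 CPM in trifloxystrobin. The high libraries of pyraclostrobin were again the highest of all, and the change was 0.97 ± 0.18 (SE, adjusted p = 0.00349) by edgeR's quasi-likelihood test. Bub1, the kinase that recruits shugoshin and checkpoint proteins, had 60.5 and 52.1 CPM in DMSO, 48.4 CPM in azoxystrobin, 76.2, 63.9, 75.5 and 84.97 CPM in picoxystrobin, 70.02, 62.7, 88.1 and 108 CPM in pyraclostrobin and 50.9, 74.2, 55.5 and 59.3 CPM in trifloxystrobin. Its high pyraclostrobin libraries were above all others, and its change was 0.80 ± 0.17 (SE, adjusted p = 0.00744) by edgeR. Bub3, the binding partner of Bub1 and the most abundant of the subgroup by CPM, had 139 and 139 CPM in DMSO, 137 CPM in azoxystrobin, 158, 141, 157 and 179.8 CPM in picoxystrobin, 157, 152, 179.5 and 172 CPM in pyraclostrobin and 141, 145, 138 and 148 CPM in trifloxystrobin. The change of Bub3 was the smallest that passed, 0.34 ± 0.10 (SE, adjusted p = 0.0282) by edgeR, and picoxystrobin at 1000 nM was as high as pyraclostrobin at 300 nM. Mad2l1, which encodes the checkpoint inhibitor MAD2, changed by 0.69 ± 0.15 (SE, adjusted p = 0.00798). Bub1b, which encodes the checkpoint protein BUBR1, had an estimate of -0.02 with a 95% interval of -0.48 to 0.44, and the kinase Ttk one of 0.43 with an interval of -0.04 to 0.90. Sgo2a had 0.58 with an interval of 0.09 to 1.07. It has a close paralog, Sgo2b, so reads of these genes may have been split.

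Condensin compacts mitotic chromosomes, and 3 of the 7 genes of chromosome structure rose, all of them condensin subunits. Smc2 (chr4:52439243-52488260, plus strand), a core ATPase of both condensins, had 122 and 115 CPM in DMSO, 112 CPM in azoxystrobin, 153, 141, 180.5 and 168 CPM in picoxystrobin, 151, 119.6, 190.1 and 235 CPM in pyraclostrobin and 119, 150.2, 129 and 116 CPM in trifloxystrobin. The high pyraclostrobin libraries were the highest, followed by picoxystrobin at 300 nM, and the change was 0.85 ± 0.15 (SE, adjusted p = 0.00284) by edgeR's quasi-likelihood test. Ncapg changed by 0.47 (adjusted p = 0.0282 by edgeR) and Ncaph by 0.72 (adjusted p = 0.0376). Smc4, the partner ATPase of Smc2, had an estimate of 0.03 with a 95% interval of -0.36 to 0.42, and Ncapd2 one of -0.09 with -0.69 to 0.51. The differences between the subunits were not tested. Mki67, the proliferation marker, had 938 and 777 CPM in DMSO, 710.4 CPM in azoxystrobin, 1020, 852, 857 and 1222 CPM in picoxystrobin, 880.0, 764, 836 and 949.8 CPM in pyraclostrobin and 688, 1008, 861 and 844 CPM in trifloxystrobin. Its high libraries of pyraclostrobin overlapped the controls, with an estimate of 0.06 and a 95% interval of -0.37 to 0.48. Top2a, the topoisomerase that untangles sister chromatids, had 0.35 with an interval of -0.06 to 0.75.

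**Figure D5:**
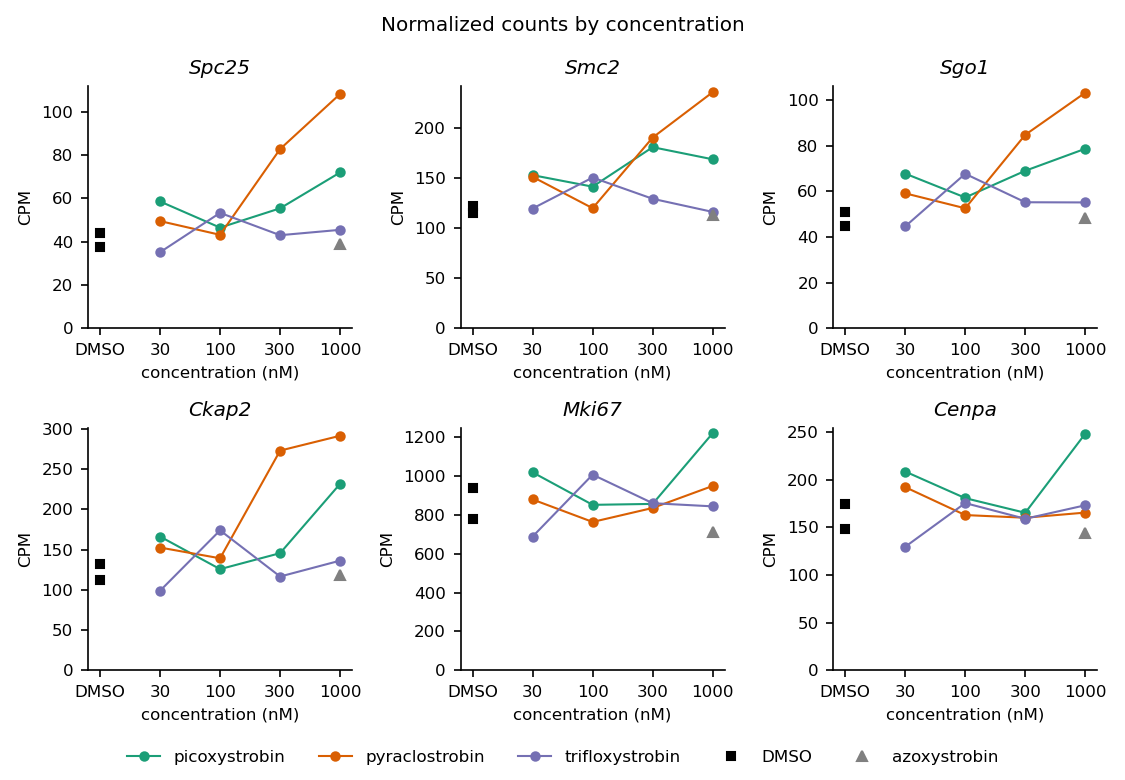
CPM (vertical axes from 0) of 6 members against concentration in nM for picoxystrobin, pyraclostrobin and trifloxystrobin, with the DMSO libraries and azoxystrobin at 1000 nM as single points and 1 library per point. Spc25, Smc2, Sgo1 and Ckap2 are highest at 1000 nM of pyraclostrobin (108, 235, 103 and 292 CPM), whereas Mki67 and Cenpa are highest at 1000 nM of picoxystrobin (1222 and 249 CPM).

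Among the 7 spindle proteins 3 rose. Ckap2 (chr8:22168160-22185819, minus strand), a microtubule-associated protein of the spindle, had 133 and 112 CPM in DMSO, 119 CPM in azoxystrobin, 166, 126, 146 and 232 CPM in picoxystrobin, 153, 139, 273 and 292 CPM in pyraclostrobin and 98.7, 174, 116 and 136 CPM in trifloxystrobin. The levels at 300 and 1000 nM of pyraclostrobin were close to each other and stood above all other libraries, and the change was 1.21 ± 0.25 (SE, adjusted p = 0.00696) by edgeR's quasi-likelihood test. Prc1, which bundles the microtubules of the central spindle, had 45.01 and 38.9 CPM in DMSO, 42.7 CPM in azoxystrobin, 51.3, 48.5, 51.2 and 77.2 CPM in picoxystrobin, 45.4, 45.3, 58.6 and 74.5 CPM in pyraclostrobin and 36.6, 53.9, 41.02 and 49.5 CPM in trifloxystrobin. Prc1 was higher in picoxystrobin at 1000 nM than in any pyraclostrobin library, and its change of 0.67 ± 0.21 (SE, adjusted p = 0.04) by edgeR was the nearest to the threshold among the members that rose. Nusap1, which stabilizes spindle microtubules, changed by 0.76 ± 0.18 (SE, adjusted p = 0.0137). Aspm, which acts at spindle poles, had an estimate of -0.33 (adjusted p = 0.151 by edgeR). It had 85.9 and 72.4 CPM in DMSO and 57.7 and 68.3 CPM at the high concentrations, which did not overlap. It had 62.93 CPM in azoxystrobin, 97.57, 84.16, 87.39 and 100.2 CPM in picoxystrobin and 64.6, 81.93, 75.08 and 78.39 CPM in trifloxystrobin. Tpx2, Hmmr and Ckap2l had estimates of 0.32, 0.42 and 0.49 and did not pass.

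Of the 2 activators of the APC/C, 1 rose. Ube2c, the ubiquitin-conjugating enzyme of the APC/C, had 172 and 155 CPM in DMSO, 169.5 CPM in azoxystrobin, 205, 172, 191 and 278 CPM in picoxystrobin, 229, 195, 266 and 275 CPM in pyraclostrobin and 138, 213, 152 and 175 CPM in trifloxystrobin. All 4 pyraclostrobin libraries were above both controls, and the change at the high concentrations was 0.73 ± 0.20 (SE, adjusted p = 0.0253) by edgeR's quasi-likelihood test. Cdc20, the co-activator that the checkpoint inhibits, had an estimate of -0.31 with a 95% interval of -0.81 to 0.18. Its high libraries, at 45.5 and 43.00 CPM, were below both DMSO libraries at 61.98 and 47.97 CPM. It had 45.67 CPM in azoxystrobin, 56.01, 45.75, 42.73 and 76.04 CPM in picoxystrobin and 45.13, 57.99, 46.98 and 53.64 CPM in trifloxystrobin.

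Of CDK1 and its cyclins, only Ccna2 passed, with a change of 0.67 ± 0.20 (SE, adjusted p = 0.0324) by edgeR. Cdk1 had 282 and 203 CPM in DMSO, 228 CPM in azoxystrobin, 320.0, 248, 248 and 450.3 CPM in picoxystrobin, 320.4, 264, 356 and 404 CPM in pyraclostrobin and 175, 377, 243 and 262 CPM in trifloxystrobin. The estimate of Cdk1 was close in size, 0.65, with an adjusted p of 0.173 by edgeR, and all 4 pyraclostrobin libraries but the one at 100 nM were above both controls. Ccnb1 and Ccnb2 had 0.33 and 0.56 and did not pass.

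The kinases of mitotic entry gave no call. Aurka, the kinase of spindle poles, had 45.01 and 32.1 CPM in DMSO, 36.00 CPM in azoxystrobin, 42.2, 33.3, 31.03 and 67.9 CPM in picoxystrobin, 38.1, 39.5, 37.8 and 46.6 CPM in pyraclostrobin and 30.4, 50.1, 30.99 and 38.2 CPM in trifloxystrobin. Picoxystrobin at 1000 nM stood above all other libraries, and 3 of the 4 pyraclostrobin libraries lay between the controls. Plk1, a kinase needed from entry to cytokinesis, had 51.9 and 32.4 CPM in DMSO and 33.42 CPM in azoxystrobin. It had 38.51, 30.41, 27.19 and 76.99 CPM in picoxystrobin and 30.7, 43.97, 36.83 and 44.29 CPM in trifloxystrobin. In pyraclostrobin it had 41.2, 42.4, 27.9 and 33.7 CPM. Its estimate at the high concentrations was -0.45 with a 95% interval of -1.26 to 0.36, the lowest of the 47.

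No member passed in the chromosomal passenger complex, the kinesins or the cytokinesis genes. Aurkb, the kinase of the passenger complex, which corrects faulty attachments, had 71.9 and 58.4 CPM in DMSO, 52.7 CPM in azoxystrobin, 67.7, 53.5, 62.8 and 121 CPM in picoxystrobin, 68.96, 70.4, 101 and 118 CPM in pyraclostrobin and 47.04, 84.4, 59.6 and 64.04 CPM in trifloxystrobin. The high libraries of pyraclostrobin and picoxystrobin at 1000 nM were above the rest, and the estimate was 0.75 (adjusted p = 0.0819 by edgeR). Birc5, which encodes survivin, and Incenp, the scaffold of the complex, had 0.56 and 0.20. Kif11, the motor that separates spindle poles, had 138 and 116 CPM in DMSO, 107 CPM in azoxystrobin, 163, 139, 165 and 206 CPM in picoxystrobin, 165, 135, 163 and 191 CPM in pyraclostrobin and 101, 168, 121 and 126 CPM in trifloxystrobin. The estimate of Kif11 was the largest of the 6 kinesins, 0.48 (adjusted p = 0.115 by edgeR), and the others, Kif2c, Kif4, Kif15, Kif20a and Kif23, lay between 0.08 and 0.43. Anln, an actin-binding scaffold of the cleavage furrow, had 267 and 217 CPM in DMSO, 210.4 CPM in azoxystrobin, 285, 239, 249 and 381 CPM in picoxystrobin, 269, 247, 287 and 297 CPM in pyraclostrobin and 219, 315, 254 and 282 CPM in trifloxystrobin. The high libraries of pyraclostrobin were above both controls but below picoxystrobin at 1000 nM and trifloxystrobin at 100 nM, and the estimate was 0.27 (adjusted p = 0.363 by edgeR). Ect2 and Racgap1, which activate RhoA at the furrow, had estimates of 0.06 and 0.48 and did not pass.

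The third comparison asked whether the high concentrations of pyraclostrobin differed from its low concentrations (30 and 100 nM), which does not use the DMSO libraries in the difference. Spc25, Smc2, Sgo1 and Ckap2 rose and no member fell, where 6.82% of all tested genes passed and 3.47% with a higher level. The changes were 1.04 ± 0.21 (SE, adjusted p = 0.0148), 0.65 ± 0.15 (SE, adjusted p = 0.023), 0.75 ± 0.18 (SE, adjusted p = 0.0279) and 0.95 ± 0.25 (SE, adjusted p = 0.0435) by edgeR's quasi-likelihood test. At an unadjusted p under 0.05, 15 members and 1619 of the 14004 tested genes were higher. The median estimate over the 47 members was 0.24. None of the 4 passed without pyraclostrobin at 30, 100 or 1000 nM, and 12 members passed without picoxystrobin at 300 or at 1000 nM. Once GC content and length of the transcripts were corrected for, Spc25 and Smc2 passed. Shares of all tested genes were not set beside the counts of these alternative fits. The high concentrations also enter the comparison with DMSO, so these are not separate evidence.

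When each library was scaled to the median of the 47 members, so that a member was compared with the other members, 2 members were higher and 3 lower at the high concentrations than in DMSO. This scaling was added after seeing the data. Spc25 and Ckap2 were higher by 0.82 and 0.81, and Aspm, Cdc20 and Plk1 were lower, at -0.73, -0.71 and -0.84, with adjusted p-values of 0.014, 0.0223, 0.0275, 0.033 and 0.0408 by edgeR. Under this scaling 18% of all tested genes passed, 0.978% higher and 17% lower, since it shifted the median change of all tested genes to -0.40. Between high and low concentrations 0 members passed, against 0.793% of all tested genes. At an unadjusted p under 0.05 there were 6 members, a count not set against all tested genes.

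The low concentrations of the 3 compounds, pooled, gave no call against DMSO for any member by edgeR's quasi-likelihood test, and 0 members at an unadjusted p under 0.05. The median estimate was 0.17, and 0% of all tested genes passed, with 1319 of the 14004 at an unadjusted p under 0.05. DESeq2 gave 0 calls and 1 member at an unadjusted p under 0.05.

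The change per 10-fold rise in concentration was then fitted over the 12 libraries of the 3 compounds, without the DMSO libraries. No member had a called slope for picoxystrobin, pyraclostrobin or trifloxystrobin, where 0%, 1.14% and 0% of all tested genes had one. At an unadjusted p under 0.05, 3, 11 and 0 members had a positive slope, as had 989, 1381 and 94 of the 14004 tested genes. DESeq2 called 0, 2 and 0 members. The median slope of the members was 0.23, 0.17 and 0.11 on the log2 scale. The steepest for pyraclostrobin was that of Spc25, 0.84 ± 0.19 (SE, adjusted p = 0.0597) by edgeR, followed by Ckap2 with 0.73, Sgo1 with 0.60, Prc1 with 0.50, Smc2 with 0.49 and Nuf2 with 0.46 among the 6 with the lowest adjusted p. Without picoxystrobin at 1000 nM, 7 members had a called slope for pyraclostrobin, and the median slope for picoxystrobin was -0.14. The counts by DESeq2 and without this library were not set against all tested genes. In the 3 differences of slopes no member passed by edgeR or DESeq2, nor did any other gene by edgeR (0% each). At an unadjusted p under 0.05, the slope of Spc25 was steeper for pyraclostrobin than for picoxystrobin, by 0.61 (95% interval 0.02 to 1.21), and that of Plk1 was less steep, by -0.90 (-1.74 to -0.07). That of Spc25 was also steeper than for trifloxystrobin, by 0.69 (0.07 to 1.32), as was that of Smc2, by 0.57 (0.06 to 1.07). Of the 14004 tested genes, 1436 and 1239 had an unadjusted p under 0.05 in these differences.

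The compounds were also compared with each other at matched concentrations and 1 time, in 3 pairs, with concentration as a block. They differ in the group that binds complex III, a methoxyacrylate in picoxystrobin, a methoxycarbamate in pyraclostrobin and an oximinoacetate in trifloxystrobin, and in the side chain. No member passed for any pair by edgeR, adjusted within each pair over all genes, so a further adjustment over the 3 pairs gave none either, and 0.0143%, 0.0143% and 0% of all tested genes passed for pyraclostrobin against picoxystrobin, pyraclostrobin against trifloxystrobin and picoxystrobin against trifloxystrobin. At an unadjusted p under 0.05 there were 6, 15 and 23 members, and 1627, 2396 and 1167 of the 14004 tested genes. DESeq2 called 0 members in each pair. The median difference was -0.05 for pyraclostrobin against picoxystrobin, with Aspm lower by -0.44 (95% interval -0.68 to -0.19), and 0.06 without picoxystrobin at 1000 nM. It was 0.24 for pyraclostrobin against trifloxystrobin, with Ube2c higher by 0.51 (0.18 to 0.84). It was 0.30 for picoxystrobin against trifloxystrobin, with all 47 estimates above 0 and Ccnb1 higher by 0.47 (0.20 to 0.73). These intervals do not show that the compounds act alike. Without trifloxystrobin at 100 nM, the median difference for pyraclostrobin against trifloxystrobin was 0.42 and 18 members passed. The share of all tested genes that passed in that fit was not set beside this count.

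Other genes of cell division, from lists of the same processes, were counted in the same fit of pyraclostrobin at 300 and 1000 nM against DMSO. In that fit 22.2% of all tested genes passed, 10.6% with a higher level. Of 34 other kinetochore genes 17 rose and 0 fell, with a median of 0.61. Cenph, of the constitutive centromere network, had 14.5 and 12.4 CPM in DMSO and 16.7, 16.8, 29.8 and 38.2 CPM in pyraclostrobin, with a change of 1.34 ± 0.21 (SE, adjusted p = 0.002) by edgeR. Of 32 other spindle and cytokinesis genes 11 rose and 1 fell (median 0.46), and Plk4, the kinase of centriole duplication, changed by 0.47 (adjusted p = 0.0149 by edgeR). Of 15 other condensin and cohesin genes 3 rose, among them Esco2, which acetylates cohesin in S phase, by 1.42 (adjusted p = 0.00433 by edgeR). Of 17 APC/C genes 1 rose, Anapc10, by 0.83 (adjusted p = 0.00977 by edgeR). Replication genes moved most often, with 22 of 31 higher, 0 lower and a median of 0.75, and Gins3, of the replicative helicase, changed by 1.15 (adjusted p = 0.00242 by edgeR). The differences between these lists and the members were not tested.

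In the same fit, where 22.2% of all tested genes passed and 10.6% rose, 8 of 22 regulators of mitotic gene transcription rose and 3 fell. Foxm1, the activator of G2 and M genes, had 162 and 124 CPM in DMSO, 113, 96.8, 97.2 and 268 CPM in picoxystrobin and 126 to 160.3 CPM in pyraclostrobin, and did not pass at the high concentrations of pyraclostrobin (0.12, 95% interval -0.58 to 0.82). Its level in picoxystrobin at 1000 nM stood above all other libraries, as did that of most members. Mybl2, which encodes B-MYB, had 9.39 and 7.62 CPM in DMSO and 8.39, 9.73, 16.4 and 18.96 CPM in pyraclostrobin, a change of 1.06 ± 0.30 (SE, adjusted p = 0.0268) by edgeR. Rbl1, which encodes the repressor p107, changed by 0.86 ± 0.17 (SE, adjusted p = 0.0053). Of 17 tested CDK regulators (19 listed) 2 rose and 1 fell. Cdkn1a, which encodes the CDK inhibitor p21, an inhibitor of cell cycle progression, had 44.2 and 37.3 CPM in DMSO, 29.9, 26.7, 29.8 and 101 CPM in picoxystrobin, 36.6, 47.8, 134 and 140.4 CPM in pyraclostrobin and 41.8, 44.6, 42.9 and 53.3 CPM in trifloxystrobin. It rose by 1.75 ± 0.38 (SE, adjusted p = 0.00805) by edgeR at the high concentrations of pyraclostrobin, where 15 of the 47 members rose.

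The cell type was checked against marker lists. The progenitor markers Vim, Nes, Sox2 and Sox9 had means of 2845, 165, 39.7 and 23.7 CPM, whereas Pax6 was at 0.0466 CPM. The microglial genes Ptprc and Itgam, the neuronal gene Rbfox3 and the astrocytic gene Aqp4 were at 0 in all libraries. The glial lineage gene Sox10 was expressed (215 CPM), as were the fibroblast markers Col1a1 and Col1a2. The summed level of the 4 fibroblast markers was 5191 to 5872 CPM in DMSO and 3416 to 4469 CPM in picoxystrobin. The median member was highest at 1000 nM of picoxystrobin (0.70). The fibroblast sum was 3875 to 4052 CPM at low and 2283 to 2572 CPM at high concentrations of pyraclostrobin. Col1a1 fell by 1.29 and Col1a2 by 0.88 at the high concentrations (adjusted p = 0.000638 and 0.00282 by edgeR), Dcn did not pass and Lum was near 0. The summed level of the 6 progenitor markers was 3100 to 3191 CPM in DMSO. At low and high concentrations of pyraclostrobin it was 2876 to 3089 and 2732 to 2835 CPM. At the high concentrations Nes was higher by 0.41 and Sox9 lower, at -0.92 (adjusted p = 0.0185 and 0.00172 by edgeR). Their part in the changes of the members was not tested. Of the 47 members, 25 overlap another annotated gene, among them 8 of the 15 that rose, and whether strand was used in counting is not given in the sources used here. Spc25, Sgo1, Nuf2, Ckap2, Bub1, Mad2l1 and Ncaph overlap none.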

How the data were processed

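RNA from C17.2α cells was sequenced as single reads, and the authors mapped the reads with Bowtie2 (version 2.3.2.2, per the submitters' processing notes) to mm10 and counted them per gene with htseq-count. The deposited files hold these raw counts per gene symbol for each library. The annotation and strand setting are not given in the sources used here. From the counts, edgeR (4.0.16, R 4.3.3) with TMM scaling gave CPM, counts scaled to library size, and its quasi-likelihood test was run over genes with a mean of at least 1 CPM in the 15 distinct libraries. P-values were adjusted by the Benjamini-Hochberg procedure over all tested genes, and 0.05 was the threshold. A prior count of 2 was added for the log2 value of a library. Standard errors come from the fit and intervals are 95% intervals. Fits against DMSO used all 15 libraries with 1 level per compound (or per low and high range), so concentrations served as replicates. Slopes and pairs of compounds used 12 libraries. DESeq2 (1.42.0) was an alternative, as were other scalings, filters, a GC correction and leaving out each library. The pipeline was tested on simulated data. GC content, lengths and positions came from GENCODE M21 on GRCm38, and promoters from RefSeq.

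Values per library were printed for the member of highest mean CPM in each subgroup, the 6 with the lowest adjusted p for the pyraclostrobin slope and for its high concentrations against DMSO, and every member called where at most 6 were. Outside the members, Foxm1, Mybl2, Cdkn1a and the gene of lowest adjusted slope p in each other list were named. Ccnb1, Aspm, Cdc20, Plk1 and the marker genes were added after their values were seen. The members and the lists were chosen with earlier results of these data known.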

Additional observations from a re-analysis of the deposited data

How the results depend on the processing

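No paired analysis was possible because only the DMSO libraries carry replicate numbers. The pairs of compounds were blocked by concentration, and without that block they gave 0 calls each, as with it. No member that had passed changed direction in the alternatives other than the scaling to the members, under which values are relative to their median. Shares of all tested genes were given above for the main fits and for the scaling to the members only. The counts of members in the other alternatives were not set against such shares. Without the filter on low counts, the members called were 1 for picoxystrobin and 12 for pyraclostrobin against DMSO, 26 for high pyraclostrobin against DMSO (14 shared), 14 for high against low, 3 and 11 for the picoxystrobin and pyraclostrobin slopes, 1 for the difference of these slopes, and 1, 14 and 1 for pyraclostrobin against picoxystrobin, pyraclostrobin against trifloxystrobin and picoxystrobin against trifloxystrobin. DESeq2 called 1 for pyraclostrobin against DMSO, 7 for high against low and 2 for the pyraclostrobin slope. The GC correction left 2 for high against low, and scaling to the members 5 and 0 for high against DMSO and against low. Without the picoxystrobin library at 1000 nM the counts were 2 for picoxystrobin and 2 for pyraclostrobin against DMSO, 24 for high against DMSO, 12 for high against low and 7 for the pyraclostrobin slope, and the median slope of picoxystrobin was -0.14, with -0.23 and 0.32 for the slope differences of picoxystrobin minus trifloxystrobin and pyraclostrobin minus picoxystrobin, so these 3 medians changed sign. Over the fits that each left out 1 of the other libraries, in which a lone sample of a level is assumed to vary like the others, the counts ranged from 0 to 6 (without pyraclostrobin at 100 nM) for pyraclostrobin against DMSO, 2 (without pyraclostrobin at 1000 nM) to 24 for high against DMSO, 0 to 12 for high against low, 0 to 2 and 0 to 3 for the picoxystrobin and pyraclostrobin slopes (both highest without picoxystrobin at 300 nM), and 0 to 18 for pyraclostrobin against trifloxystrobin. Median slopes ranged from 0.198 to 0.568 for picoxystrobin, 0.068 to 0.392 for pyraclostrobin and -0.275 to 0.223 for trifloxystrobin, and their differences from -0.395 to 0.198 (pyraclostrobin minus picoxystrobin), -0.065 to 0.552 (pyraclostrobin minus trifloxystrobin) and 0.004 to 0.474 (picoxystrobin minus trifloxystrobin). Median differences at matched concentrations ranged from 0.159 to 0.424 for pyraclostrobin and 0.219 to 0.495 for picoxystrobin, both against trifloxystrobin. Spc25 and Smc2 passed for high against DMSO in all 23 alternatives other than the scaling to the members, under which Smc2 did not pass (adjusted p = 0.21 by edgeR). The cause of these changes was not tested. With 1 library per concentration, a library that stands apart cannot be told from an effect of its concentration.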
